A study of Gallus gallus with 10 samples.

Results

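The cell division genes examined here were those among 45 listed symbols, covering DNA replication, the cyclins and their kinases, and mitosis, that had a row in the deposited gene table. Of these, 43 were found among the 25443 genes of the table, each in a single row, and all 43 passed the filter on low counts. There were 17 replication genes, 8 cyclin, kinase and regulator genes, and 18 mitosis genes. Rows named CCNB2 and AURKA were not found, and those genes were not analysed here.

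The samples were 10 libraries of poly-A RNA, each from pooled tissue of 4 chicken embryos collected at stages 10 to 11. Embryos with exogenous Otx2 had received 0.25 μg of a mouse Otx2 vector and 0.2 μg of an EGFP vector, both under the broadly active CAG promoter, by electroporation of the epiblast at stages 4 to 5. They gave the trunk libraries OT1 and OT2 (the portion equivalent to the sinus rhomboidalis, the open posterior neural plate), the midbrain-hindbrain libraries OH1 and OH2, and the library OA of the posterior area opaca, the extraembryonic tissue around the embryo. The corresponding control libraries were CT1 and CT2, CH1 and CH2, and CA. Controls received, per the study's methods, EGFP together with an empty vector. Labels of the control trunk libraries conflict, since CT1 is titled as not electroporated while its treatment entry names the EGFP vector, and the entry of CT2 names no electroporation. EGFP was at 1.12 TPM in CT1 (12 reads) and at 15328 TPM in CT2, so that CT1 is treated as not electroporated where its part in a result is given. The study reported vector expression in nearly all tissues derived from the epiblast, with EGFP fluorescence that varied moderately between cells. The study's methods describe no separation of germ layers within the dissected portions.

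Before a cell divides, its DNA is licensed for copying when CDC6 helps to load the ring-shaped MCM helicase onto replication origins. CDC45 and the GINS complex then join the ring, and primase, DNA polymerases, the PCNA clamp and its loader copy both strands from nucleotides that ribonucleotide reductase supplies. Cyclins bound to cyclin-dependent kinases drive these steps and the entry into mitosis, in which condensin and topoisomerase II compact the chromosomes, kinetochores attach them to the spindle, and a checkpoint holds the cell until every attachment is made. Most of these genes are transcribed in a wave once per cycle, and their transcript levels in a tissue rise with the share of its cells that are dividing. Neural plate, somite precursors and brain vesicles of early chicken embryos are all known as rapidly dividing tissues.

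Gene counts per library ranged from 28606038 in CT1 to 40806402 in OA. Levels are given in TPM, a unit in which read counts are corrected for transcript length and depth so that every library has the same total. Fold changes come from the read counts with edgeR's quasi-likelihood test, in which the 8 embryonic libraries were fitted together over 16611 genes, and all 10 libraries over 16915 genes for area opaca. A gene is called when its adjusted p (Benjamini-Hochberg, over all genes tested) is under 0.05, and fold changes are given as log2 with their standard error (SE). No label says that the duplicate pools came from separate experiments, and p-values measure the spread between pools. Within CT and within area opaca, this spread includes a treatment difference. CT1 is treated as not electroporated, and OA and CA differ in exogenous Otx2.

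Every one of the 43 genes was detected in every library, between 6.97 TPM for CENPA in OA and 783 TPM for PCNA in CT1. PCNA, the sliding clamp (gene identifier 373984, chromosome 22, 402327 to 405426 on GRCg7w), CDK1, the mitotic kinase (396252, chromosome 6, 9274606 to 9283547), and CKS1B, a small subunit that binds these kinases, had the highest levels in each library. RRM2, the small subunit of ribonucleotide reductase (421936, chromosome 3, 96022831 to 96027861), came next in every library except OA, where SMC2 did, at 237.6 and 244.4 TPM in OT, 340.4 and 285 TPM in CT, and between 271.5 and 325.2 TPM in the brain libraries. On average over the libraries, the least abundant were CENPA, the histone H3 variant of centromeres (100113359, chromosome 16, 1146277 to 1147996), CENPF, a kinetochore protein, POLE, the leading-strand polymerase, and CDC6. Over the 10 libraries, GINS2 had the widest range, with a highest level 5.24 times its lowest, and CCND2 the narrowest, at 1.27 times.

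**Figure D1:**
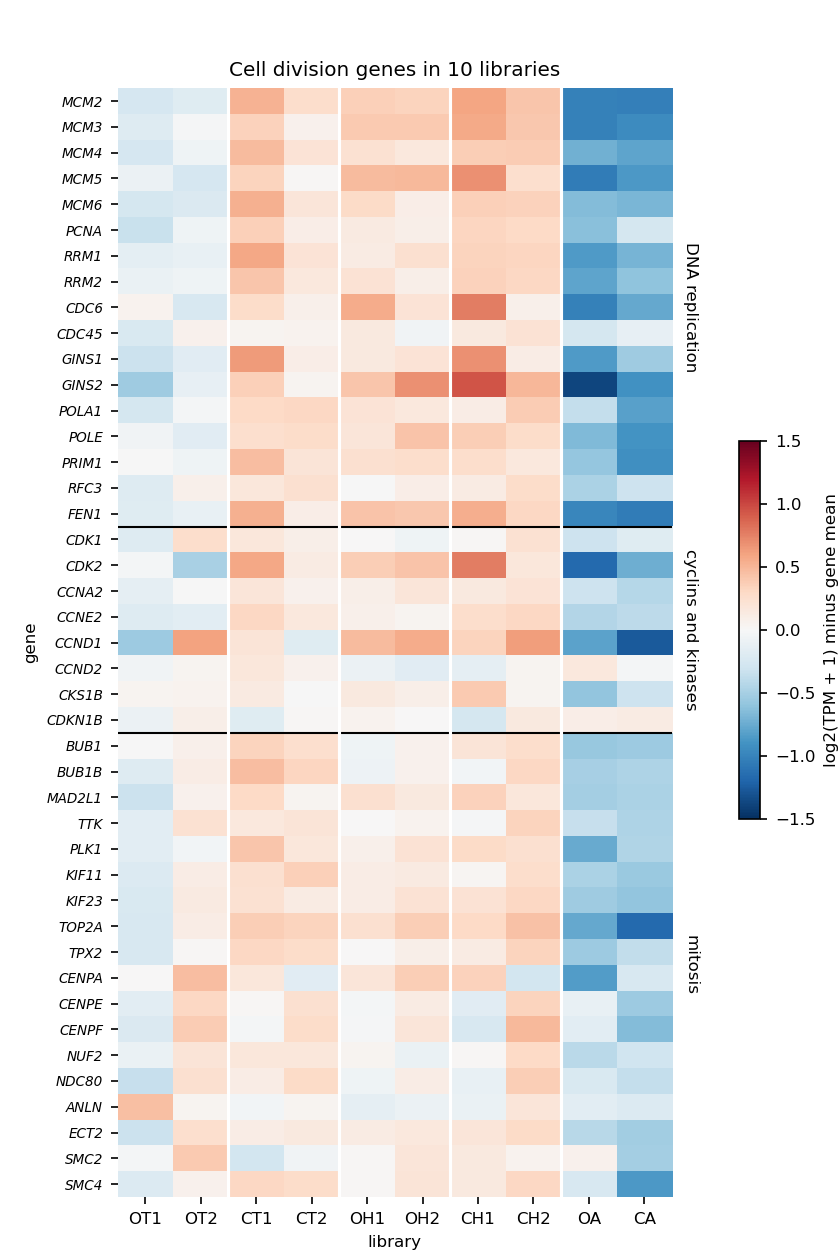
Levels of the 43 cell division genes (rows, in role groups separated by black lines) in the 10 libraries (columns). Color shows log2(TPM + 1) minus the mean of the gene over the 10 libraries, with red above and blue below the mean. OA and CA are blue for most genes, with the darkest blue among replication genes, and OT1 and OT2 are pale blue or near the mean in the replication block.

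To summarize a role group, the median over its genes of log2(TPM + 1) minus the mean of each gene was taken in each library. In the trunk, the replication median was −0.20 (OT1) and −0.11 (OT2), against 0.36 in CT1 and 0.16 in CT2. It was 0.23 in OH1 and 0.20 in OH2, against 0.36 in CH1 and 0.31 in CH2, and −0.79 in both OA and CA. OT1 and OT2 thus stood below the other 6 embryonic libraries, OH below CH, and OA and CA below all of these, while CT1 and CT2 enclosed the OH libraries.

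The mitosis median had a smaller range, and OT2, at 0.13, lay within the range of the brain libraries, which extended from 0.02 in OH1 to 0.30 in CH2, whereas OT1 was at −0.20. It was 0.20 in CT1 and 0.21 in CT2. Area opaca was again lowest, at −0.44 in OA and −0.49 in CA. For cyclins, kinases and their regulators, all embryonic libraries lay between −0.11 in OT1 and 0.21 in CH1, and OA and CA were at −0.37 and −0.35.

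**Figure D2:**
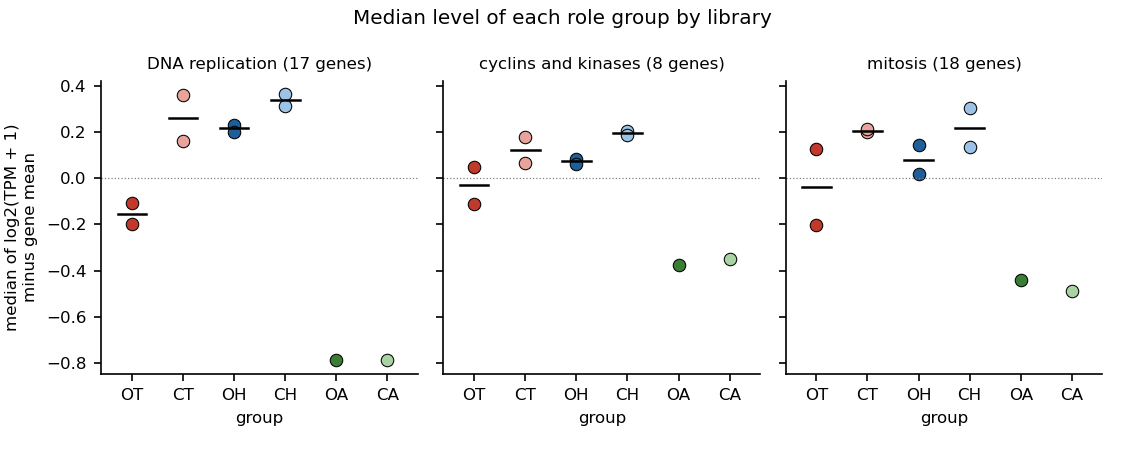
Median over the genes of each role group of log2(TPM + 1) minus the gene mean over the 10 libraries, on a shared vertical axis, by group. Dots are libraries (pools of 4 embryos) and bars are means of duplicates. The replication medians of OT, −0.20 and −0.11, lie below those of the other 6 embryonic libraries, while one OT library overlaps the brain libraries for mitosis genes.

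The trunk comparison asked what exogenous Otx2 expression did in the posterior portion. None of the 43 genes was called in OT compared with CT by edgeR, where 6.73% of all 16611 genes tested were called. All 17 replication genes had a negative fold change, with a median of −0.39 (0.763 times the CT level), compared with a median of 0.03 and 47.3% negative over all genes. At an unadjusted p under 0.05 there were 17 of the 43 genes, where 26.8% of all genes were, and 16 of them were negative (9 replication, 1 cyclin and 6 mitosis genes), where 11.7% of all genes were negative at that p. The DESeq2 Wald test called 8 of the 43, all negative (MCM2, MCM4, MCM6, RRM1, POLA1, PCNA, TOP2A and TPX2), and 16.7% of all genes. With limma on log2(TPM + 1), MCM2 was the single member called, where 5.57% of all genes were. In these bulk pools, fewer dividing cells and less RNA per dividing cell cannot be told apart.

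Among the helicase genes, MCM2 (416027, chromosome 12, 9948652 to 9959983) was at 102.9 and 108.2 TPM in OT1 and OT2, against 176.3 and 147.0 TPM in CT1 and CT2. Both OT libraries lay below both CT libraries, and its log2 fold change was −0.57 (SE 0.14; adjusted p = 0.0594 by edgeR), the lowest adjusted p among the members. MCM6 was at 86.9 and 89.8 TPM in OT, against 152.1 and 118.7 TPM in CT (−0.58, SE 0.15; adjusted p = 0.066 by edgeR). MCM4, at 65.6 and 74.5 TPM in OT and 109.2 and 90.5 TPM in CT, had a value of −0.47 (SE 0.13), again without overlap. MCM5, at 142.9 and 127.3 TPM in OT and 192.8 and 154.7 TPM in CT, had −0.32 (SE 0.21), and MCM3 had −0.28 (SE 0.15).

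The helicase partners varied more between duplicates. GINS1 had the most negative fold change of all members, −0.62, but with an SE of 0.29 it had an adjusted p of 0.219 by edgeR. It was at 26.6 and 29.8 TPM in OT, against 52.7 and 36.2 TPM in CT. GINS2 (415824, chromosome 11, 17621522 to 17630097) was at 26.9 and 36.2 TPM in OT and at 50.9 and 40.7 TPM in CT (−0.41, SE 0.24). CDC45, which completes the active helicase, was the only replication gene whose OT and CT libraries overlapped, at 83.9 and 102.9 TPM in OT and 101.3 and 101.6 TPM in CT.

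PCNA was at 482.9 and 584.8 TPM in OT, against 783.3 and 653.0 TPM in CT, and its log2 fold change was −0.39 (SE 0.13; adjusted p = 0.123 by edgeR). The ribonucleotide reductase genes RRM1 and RRM2 had values of −0.49 (SE 0.15) and −0.34 (SE 0.13). POLA1, the catalytic subunit of the polymerase that starts new strands, had −0.42 (SE 0.11; adjusted p = 0.067 by edgeR), and FEN1, which trims the flaps of lagging-strand fragments, −0.43 (SE 0.18). In all, 16 of the 17 replication genes had both OT libraries below both CT libraries, an order found for 29.6% of all genes tested. In 15 of the 17, both OT libraries were also below all 6 other embryonic libraries, where 14.7% of all genes were.

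Cyclins and kinases did not share a direction between OT and CT. CDK2, the kinase that acts with cyclins E and A in replication, was at 80.1 and 58.1 TPM in OT, against 122.4 and 89.0 TPM in CT, with a log2 fold change of −0.57 (SE 0.29). CCNE2, a cyclin E, was at 26.6 and 27.2 TPM in OT, against 38.0 and 34.1 TPM in CT (−0.38, SE 0.12; adjusted p = 0.108 by edgeR). In both, the OT libraries lay below the CT libraries, as they did for CCNA2, cyclin A, at 84.2 and 92.1 TPM in OT and 105.6 and 97.2 TPM in CT (−0.16, SE 0.10).

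CDK1, in contrast, was at 454.2 and 626.9 TPM in OT, on both sides of the 585.4 and 552.4 TPM in CT, with a value of −0.04 (SE 0.14). CCND1, a D-type cyclin that responds to growth signals (396341, chromosome 5, 17042768 to 17059093), had 31.2 TPM (OT1) and 70.1 TPM (OT2), against 52.4 and 40.3 TPM in CT. The OT libraries thus enclosed the CT libraries, and the value of 0.16 (SE 0.32) turned to −0.45 without OT2. CCND2, the related cyclin (374047, chromosome 1, 73898809 to 73943742), was at 41.1 and 43.8 TPM in OT, just under the 48.1 and 44.6 TPM in CT (−0.09, SE 0.11). CKS1B, at 474.5 and 479.6 TPM in OT, fell inside the CT range of 460.1 to 507.0 TPM, and CDKN1B, a kinase inhibitor that holds cells out of the cycle (374106, chromosome 1, 72489986 to 72493511), was at 38.2 and 43.0 TPM in OT and 35.5 and 41.0 TPM in CT (0.15, SE 0.14).

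Mitosis genes were split by library. Their median fold change was −0.19, with 14 of 18 negative. In 7 of the 18 (38.9%), both OT libraries lay below both CT libraries, where 29.6% of all genes tested did. BUB1B, a checkpoint gene, was at 78.6 and 97.2 TPM in OT, against 125.0 and 113.2 TPM in CT (−0.40, SE 0.13; adjusted p = 0.112 by edgeR). TOP2A, topoisomerase II (395570, chromosome 27, 5576768 to 5594433), was at 156.7 and 200.7 TPM in OT, against 239.7 and 233.7 TPM in CT (−0.37, SE 0.12), and PLK1, a kinase of mitotic entry and spindle assembly (416575, chromosome 14, 6901598 to 6907094), at 179.6 and 194.2 TPM in OT, against 266.8 and 225.5 TPM in CT (−0.36, SE 0.13). TPX2, which organizes spindle microtubules, had the lowest adjusted p of the group at −0.36 (SE 0.10; adjusted p = 0.0849 by edgeR). BUB1, a checkpoint kinase, was at 62.9 and 66.6 TPM in OT and at 80.3 and 75.8 TPM in CT (−0.23, SE 0.10).

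Several kinetochore genes showed no common order. CENPA was at 13.3 and 18.6 TPM in OT and 14.99 and 11.7 TPM in CT (0.29, SE 0.37), and CENPE and CENPF, a motor and a structural protein of kinetochores, had values of −0.00 (SE 0.18) and 0.02 (SE 0.26). OT2 exceeded OT1 in 17 of the 18 mitosis genes, by a median of 0.36 on the log2 scale, while in the replication genes OT2 exceeded OT1 by a median of 0.07. Of all 16915 genes, OT2 was above OT1 in 9487 and below it in 7337, with a median of 0.05. Without OT1, the mitosis median was −0.00 with 9 of 18 genes negative, and the replication median was −0.42 with 16 of 17 negative. Without the non-electroporated CT1, these medians were −0.12 and −0.24, and all 17 replication genes remained negative. ANLN, which builds the cleavage furrow, had 84.9 TPM (OT1) and 63.3 TPM (OT2), against 59.9 and 63.4 TPM in CT, and it was the 1 member called without OT2, at 0.58 (adjusted p = 0.0482 by edgeR).

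SMC2, a condensin subunit (396156), was the only member with both OT libraries above both CT libraries, an order found for 25.9% of all genes. It was at 179.0 and 240.3 TPM in OT, against 151.1 and 175.7 TPM in CT (0.39, SE 0.16; adjusted p = 0.163 by edgeR). Its partner SMC4 had a value of −0.32 (SE 0.11). SMC2 is the single member on the Z chromosome, and the 778 Z-linked genes tested had a median fold change of 0.33 in OT compared with CT, with 592 of them positive, against 0.02 for genes on the other chromosomes apart from W. The summed level of 94 W-linked genes was 841 and 758 TPM in OT and 2150 and 2267 TPM in CT. The part of the sex of the pooled embryos in the value of SMC2 was not tested.

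**Figure D3:**
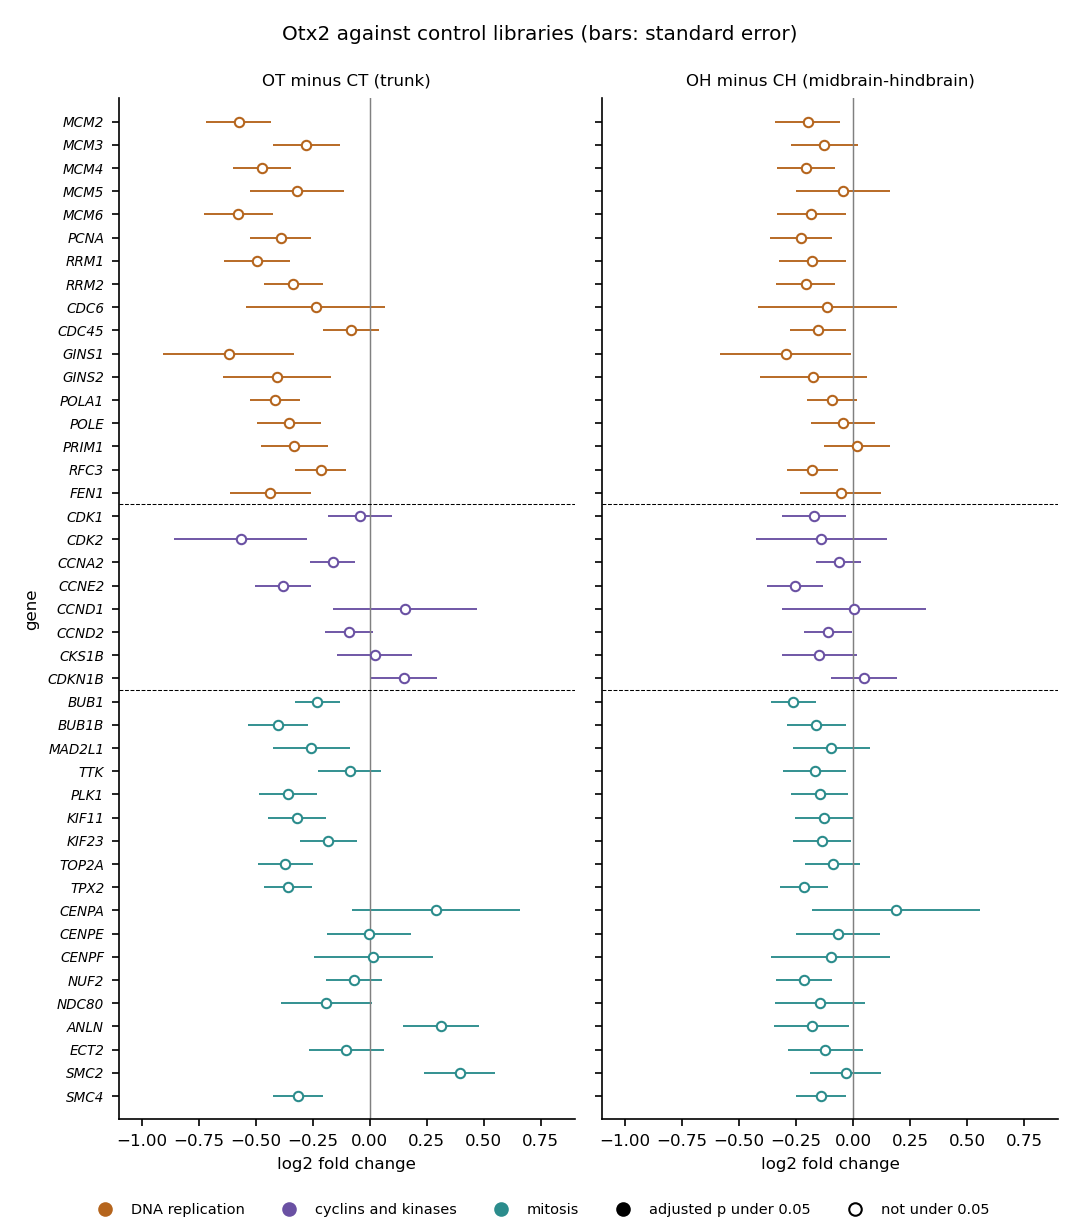
Log2 fold change of each member (points, bars are SE) in OT compared with CT (left) and OH compared with CH (right), colored by role group. Open circles have an adjusted p of 0.05 or more, which holds for all 43 genes on both sides, and all 17 replication genes lie left of 0 in OT compared with CT.

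Other tissues differed between the same trunk libraries. The summed level of 11 cardiac muscle genes was 1929 and 1910 TPM in OT, against 185 and 182 TPM in CT, and 7 of the 11 were called higher in OT. Of all genes tested, 6.73% were called in either direction. For 11 yolk sac endoderm genes the sums were 14951 and 9758 TPM in OT, against 2520 and 6674 TPM in CT. All 11 had a positive fold change, but 0 were called (lowest adjusted p = 0.114 by edgeR). Blood genes overlapped, with 8 genes summing to 15011 and 1862 TPM in OT and 10009 and 5955 TPM in CT. Of the genes of neuromesodermal progenitors and paraxial mesoderm, 5 of 10 tested were called lower in OT, and the 11 measured genes summed to 263 and 95.4 TPM in OT, against 986 and 907 TPM in CT. Neuroepithelial genes, 10 in number, summed to 741 and 1002 TPM in OT, against 1889 and 1527 TPM in CT, but most of each sum was FABP7, at 548 and 650 TPM in OT and 1624 and 1302 TPM in CT, which fell (−1.25). By fold change, 6 of these 10 genes were positive (median 0.26), and NES, at 95.0 and 118 TPM in OT and 45.2 and 35.1 TPM in CT, rose (1.44). None of these marker genes was at 0 in every library. The part of these differences in tissue content in the values of the cell division genes was not tested.

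In the midbrain-hindbrain portion, 0 of the 43 genes were called in OH compared with CH by edgeR, by DESeq2 or by limma, where edgeR called 0.0361% of all genes tested, and 1 member, BUB1, had an unadjusted p under 0.05, as 2.76% of all genes did. Fold changes were small and mostly negative, for 16 of 17 replication genes (median −0.17), 17 of 18 mitosis genes (median −0.14) and 6 of 8 cyclins, kinases and regulators (median −0.13), compared with 48.4% negative and a median of 0.01 over all genes. BUB1 (421226, chromosome 3, 3209055 to 3228829) was at 60.5 and 66.0 TPM in OH, against 72.7 and 76.3 TPM in CH (−0.26, SE 0.10; adjusted p = 1 by edgeR). Both OH libraries lay below both CH libraries in 8 replication, 2 cyclin or kinase and 5 mitosis genes, which is 15 of 43, where 12.8% of all genes did.

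MCM2 was at 157.3 and 154.3 TPM in OH, against 186.1 and 163.9 TPM in CH (−0.20, SE 0.14), and PCNA at 667.4 and 645.8 TPM in OH, against 760.3 and 749.2 TPM in CH (−0.23, SE 0.13). CCNE2, at 32.2 and 31.4 TPM in OH and 36.8 and 37.9 TPM in CH (−0.26, SE 0.12), and PLK1, at 211.6 and 232.7 TPM in OH and 245.0 and 236.7 TPM in CH (−0.15, SE 0.13), had the same order. For each of these 4 genes the OH libraries stood below the CH libraries by less than 0.3 on the log2 scale. CDK1 was at 521.1 and 498.4 TPM in OH, against 527.2 and 608.7 TPM in CH (−0.17, SE 0.14).

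Other members overlapped between OH and CH. TOP2A was at 219.2 and 239.1 TPM in OH and 228.2 and 251.2 TPM in CH (−0.09, SE 0.12), BUB1B at 85.8 and 94.5 TPM in OH and 87.2 and 111.5 TPM in CH, and CENPA at 15.2 and 17.4 TPM in OH and 17.1 and 10.8 TPM in CH. CCND1 was at 64.2 and 67.7 TPM in OH and 58.0 and 71.6 TPM in CH, CCND2 at 40.04 and 37.9 TPM in OH and 38.7 and 43.9 TPM in CH, and CDKN1B at 42.1 and 40.6 TPM in OH and 33.5 and 45.1 TPM in CH. CKS1B was at 509.9 and 488.3 TPM in OH and 603.0 and 475.7 TPM in CH, and SMC2 at 184.2 and 207.1 TPM in OH and 202.3 and 189.3 TPM in CH. For each of these overlapping members, the duplicates in CH were farther apart than the means of OH and CH. Between the CH duplicates, CH1 was below CH2 in 14 of 18 mitosis genes and above it in 13 of 17 replication genes. Of all 16915 genes, CH1 was below CH2 in 10630 and above it in 5978. Without CH1, 9 of the 17 replication genes were negative with a median of −0.03, so that the common sign of these fold changes depended on CH1. In TPM, the replication median of CH2 (0.31) still lay above those of both OH libraries (0.23 and 0.20). A set of 11 cardiac muscle genes summed to 645 TPM in CH1 and 4445 TPM in CH2, against 2790 and 4721 TPM in OH. The 94 W-linked genes summed to 251 TPM in CH1 and 2178 TPM in CH2, against 1581 and 1025 TPM in OH. The part of these differences in the values of the cell division genes was not tested.

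Whether OT differed from CT more than OH from CH was tested by the interaction, for which 0 of the 43 genes were called by edgeR, DESeq2 or limma and 0 had an unadjusted p under 0.05. Among all genes, edgeR called 0.223%, and 13.1% had an unadjusted p under 0.05. The interaction was negative for 16 of 17 replication genes, with a median of −0.28, and for 9 of 18 mitosis genes, with a median of −0.01, compared with 47.9% of all genes. The replication median was −0.08 without CH2 and −0.11 without CT1, with 14 of 17 negative in both, and −0.44 without CH1, and the mitosis median was 0.14 without OT1 and −0.17 without OT2. MCM6 and FEN1 had the most negative replication values, −0.39 (SE 0.21) and −0.38 (SE 0.25), and the lowest adjusted p by edgeR among all members was 0.434, for ANLN.

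Between control tissues, in CT compared with CH, 0 of the 43 were called by edgeR, DESeq2 or limma, where edgeR called 7.78% of all genes tested, and GINS2 was the 1 member with an unadjusted p under 0.05, as 21.7% of all genes had. Both CT libraries lay below both CH libraries in 6 members and above them in 2, where 24% and 25% of all genes did. The median fold change was −0.07 for replication genes, −0.07 for cyclins, kinases and regulators and −0.00 for mitosis genes. The replication median changed size and sign with the library left out, being −0.19 without CT1 (15 of 17 negative), −0.18 without CH2 (16 of 17), and 0.04 without CT2 or without CH1 (8 and 7 of 17). GINS2, a subunit of the active helicase, was at 50.9 and 40.7 TPM in CT, against 76.5 and 55.9 TPM in CH, with a log2 fold change of −0.63 (SE 0.24; adjusted p = 0.173 by edgeR). CCND1 had a value of −0.49 (SE 0.32), both CT libraries being below both CH libraries, and CCND2 0.16 (SE 0.11), both being above. BUB1B, at 0.26 (SE 0.13), was the most positive mitosis gene and SMC2, at −0.28 (SE 0.16), the most negative. The 778 Z-linked genes tested, of which SMC2 is one, had a median of −0.16, with 275 positive.

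Within the embryos with exogenous Otx2, OT was compared with OH, which shares OT with the trunk comparison and OH with the brain comparison. Again 0 of the 43 were called by edgeR, where 3.34% of all genes were, and 11 had an unadjusted p under 0.05, as 24% of all genes did. DESeq2 called 3 members (GINS2, MCM2 and MCM3) and 14.8% of all genes, and limma on log2(TPM + 1) called MCM2 and 5.12% of all genes. All 17 replication genes were negative with a median of −0.38, compared with 50.7% of all genes, and 15 of them had both OT libraries below both OH libraries, as 32.9% of all genes did. GINS2, at 26.9 and 36.2 TPM in OT and 53.2 and 63.9 TPM in OH, was the most negative (−0.86, SE 0.24; adjusted p = 0.0846 by edgeR). Mitosis genes had a median of 0.01, with 10 of 18 positive, but this median was 0.13 without OT1 (6 of 18 negative) and −0.16 without OT2 (15 of 18 negative).

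The area opaca libraries gave the largest differences in these genes. OA and CA had no replicate of their own and were therefore entered as 2 libraries of 1 tissue that differ in treatment. Compared with the mean of OH and CH, 21 of the 43 genes were called, 19 lower and 2 higher in area opaca, where 39.3% of all 16915 genes were called, 18.4% lower and 20.9% higher. Of 17 replication genes, 13 fell, with a median of −0.72 over the group (0.609 times the brain level). Of 18 mitosis genes, 4 fell (median −0.27), and among cyclins, kinases and regulators CCND1 and CDK2 fell and CCND2 and CDKN1B rose. Over all genes the median was 0.01.

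GINS2 fell most, to 14.6 TPM in OA and 20.5 TPM in CA, against 53.2 and 63.9 TPM in OH and 76.5 and 55.9 TPM in CH (−1.51, SE 0.26; adjusted p = 0.00283 by edgeR). MCM2 was at 60.2 TPM in OA and 59.8 TPM in CA (−1.14, SE 0.13; adjusted p = 0.000538 by edgeR), and MCM5 at 73.2 and 83.4 TPM, against 211.4 and 214.0 TPM in OH and 245.7 and 181.3 TPM in CH (−1.13, SE 0.20). MCM3 and FEN1 had like values, −1.12 (SE 0.14) and −1.14 (SE 0.15). RRM2 was at 147.3 TPM in OA and 167.8 TPM in CA, against 295.1 and 271.5 TPM in OH and 325.2 and 316.8 TPM in CH (−0.61, SE 0.13; adjusted p = 0.00794 by edgeR). MCM6 was at 66.3 TPM in OA and 64.8 TPM in CA, against 128.0 and 111.8 TPM in OH and 134.3 and 132.8 TPM in CH (−0.63, SE 0.13). In none of these did the area opaca libraries overlap any embryonic library.

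The 4 replication genes that were not called were PCNA, RFC3, CDC45 and GINS1. PCNA was at 396.0 TPM in OA and 508.5 TPM in CA, the second of which lay above OT1 (−0.31, SE 0.16; adjusted p = 0.148 by edgeR). RFC3, part of the loader of the PCNA clamp, had a value of −0.19 (SE 0.12), and CDC45 was at 82.1 TPM in OA and 90.0 TPM in CA, with a fold change of 0.01 (SE 0.12) that was −0.31 with limma on log2(TPM + 1), where it was called (adjusted p = 0.0493). GINS1 was at 18.2 and 22.8 TPM in OA and CA, against 37.4 and 38.7 TPM in OH and 54.5 and 36.2 TPM in CH (−0.70, SE 0.27; adjusted p = 0.0683 by edgeR).

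The D-type cyclins went opposite ways in area opaca. CCND1 fell to 25.9 TPM in OA and 18.6 TPM in CA, below all 8 embryonic libraries (−1.24, SE 0.28; adjusted p = 0.0096 by edgeR). CCND2 was at 47.5 TPM in OA and 41.8 TPM in CA, against 40.04 and 37.9 TPM in OH and 38.7 and 43.9 TPM in CH, and rose by 0.47 on the log2 scale after normalization (SE 0.09; adjusted p = 0.00439 by edgeR), while the TPM values themselves overlapped. CDKN1B, at 43.7 and 44.1 TPM in OA and CA, likewise overlapped the brain libraries in TPM and was called higher (0.46, SE 0.13; adjusted p = 0.0217 by edgeR). With limma on log2(TPM + 1), on which scale the median of all genes was −0.21, CCND2 and CDKN1B had values of 0.15 and 0.13 and were not called. CDKN1B was also not called without OA, CA, OH1, OH2 or CH1, with values from 0.37 to 0.51 and adjusted p by edgeR of up to 0.117, and CCND1 not without CA (−1.09; adjusted p = 0.0654 by edgeR).

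The kinases also diverged. CDK2 fell to 35.8 TPM in OA and 48.7 TPM in CA, against 106.03 and 110.4 TPM in OH and 139.6 and 91.8 TPM in CH (−1.08, SE 0.28; adjusted p = 0.0179 by edgeR), a call that was lost without OA (−0.84; adjusted p = 0.109 by edgeR). CDK1 was at 418.8 TPM in OA and 457.4 TPM in CA, with a fold change of 0.03 (SE 0.13) that was −0.30 with limma on log2(TPM + 1). CCNA2, with 98.5 and 104.9 TPM in OH and 102.5 and 107.3 TPM in CH, was at 74.6 and 68.7 TPM, CCNE2 at 22.2 and 23.0 TPM and CKS1B at 304.8 and 371.1 TPM in OA and CA. All 3 were below every embryonic library in TPM but had adjusted p values of 0.0876, 0.0776 and 0.192 by edgeR.

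Among mitosis genes, TOP2A fell to 108.4 TPM in OA and 81.6 TPM in CA, against 219.2 and 239.1 TPM in OH and 228.2 and 251.2 TPM in CH (−0.99, SE 0.12; adjusted p = 0.000689 by edgeR). The other mitosis genes that fell were KIF23, a kinesin of the midzone spindle (−0.48, SE 0.11), PLK1, at 117.8 TPM in OA and 146.3 TPM in CA (−0.48, SE 0.15), and BUB1, at 42.4 and 43.1 TPM (−0.36, SE 0.10). TOP2A thus stood apart from the remaining mitosis genes, of which none had a value below −0.48 in the fit of all libraries. With 1 library left out in turn, PLK1 ranged from −0.73 to −0.30 and BUB1 from −0.45 to −0.31. Neither was called in every such fit. BUB1B was at 63.6 TPM in OA and 64.9 TPM in CA (−0.23, SE 0.12), and CENPA at 6.97 TPM in OA and 11.1 TPM in CA (−0.41, SE 0.36). SMC2, at 191.5 and 128.0 TPM, had a value of 0.01 (SE 0.16) that turned to −0.32 with limma on log2(TPM + 1), and NDC80 and NUF2, parts of the complex that binds kinetochores to microtubules, had values of −0.07 (SE 0.16) and −0.10 (SE 0.12).

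**Figure D4:**
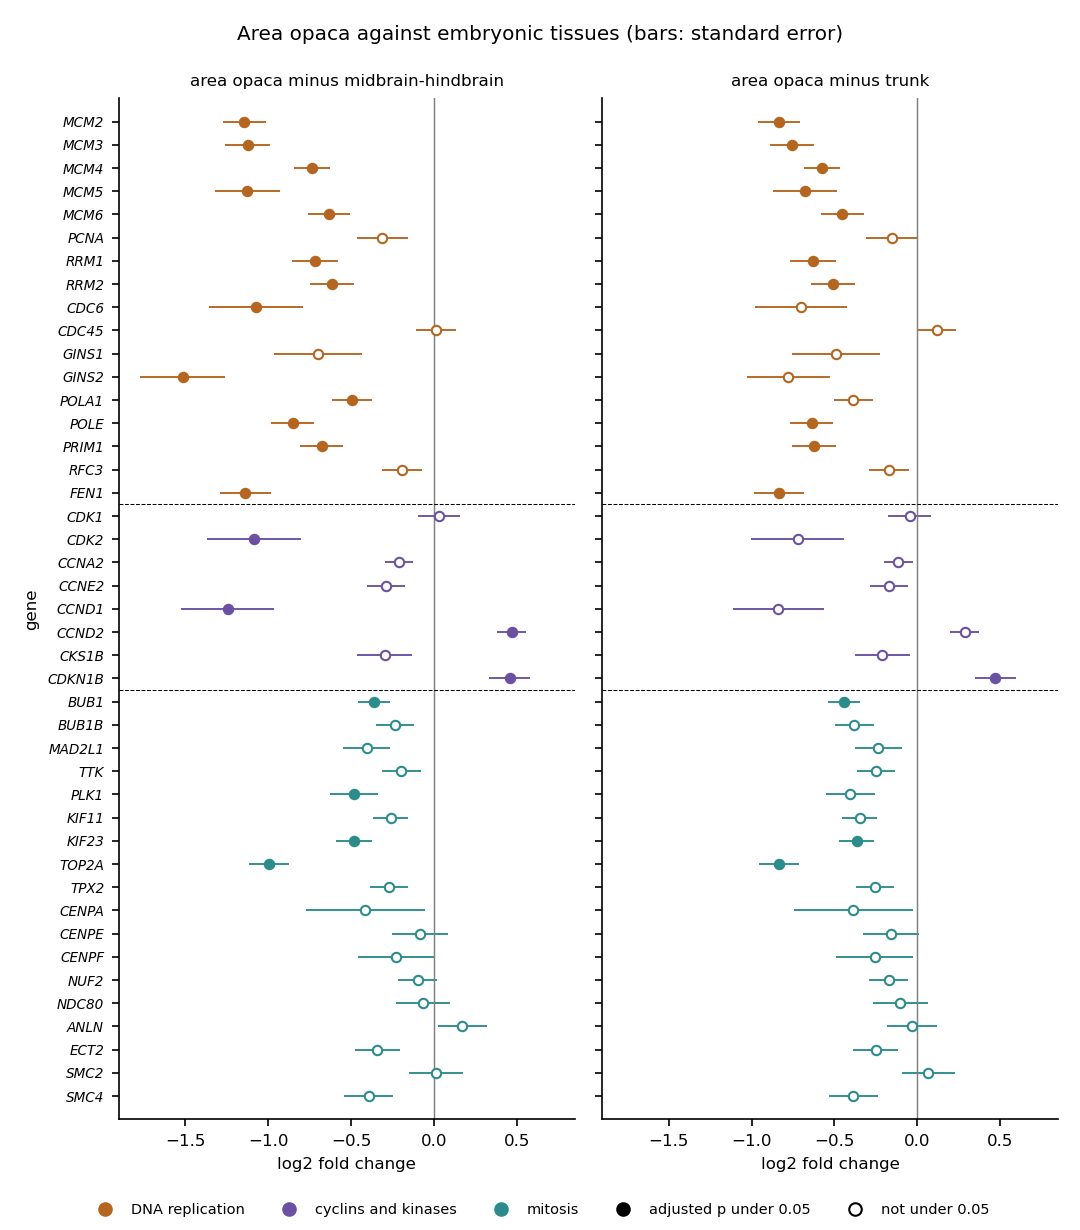
Log2 fold change of each member (points, bars are SE) in area opaca (OA and CA) compared with midbrain-hindbrain (mean of OH and CH, left) and with trunk (mean of OT and CT, right). Filled points have an adjusted p under 0.05: 21 genes on the left and 14 on the right, of which 13 and 10 are replication genes, all lower in area opaca.

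The contrast between replication and mitosis genes is little affected by the scaling of whole libraries when it is taken within a library. The replication median minus the mitosis median was −0.34 in OA and −0.30 in CA, lower than in each embryonic library, where it extended from −0.24 in OT2 to 0.23 in CH1. The mean of area opaca minus that of midbrain-hindbrain was −0.45, and this difference ranged from −0.48 to −0.43 when each library was left out in turn. Between OT and CT, the same quantity overlapped, at 0.00 and −0.24 in OT and 0.16 and −0.05 in CT. This quantity was chosen after the data had been seen and was not tested.

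Compared with the mean of OT and CT, 14 genes were called in area opaca, where 17.8% of all genes were, 7.96% lower and 9.83% higher. These were 10 replication genes, BUB1, TOP2A and KIF23, all lower, and CDKN1B, higher. MCM2 and FEN1 had the most negative replication values, both −0.83 (SE 0.13 and 0.15; adjusted p = 0.00611 and 0.0107 by edgeR), and TOP2A also had −0.83 (SE 0.12; adjusted p = 0.00513 by edgeR). MCM2 and TOP2A were the only members called when any of the 10 libraries was left out in turn, whereas in the comparison with midbrain-hindbrain 14 of the 21 called genes were. Over these fits, MCM2 ranged from −0.91 to −0.78 and TOP2A from −0.99 to −0.69. Among all genes too, fewer were called in most of these fits than with all 10 libraries. In TPM, both area opaca libraries lay below all 8 embryonic libraries in 15 of 17 replication, 5 of 8 cyclin or kinase and 13 of 18 mitosis genes, where 27.5% of all genes did.

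**Figure D5:**
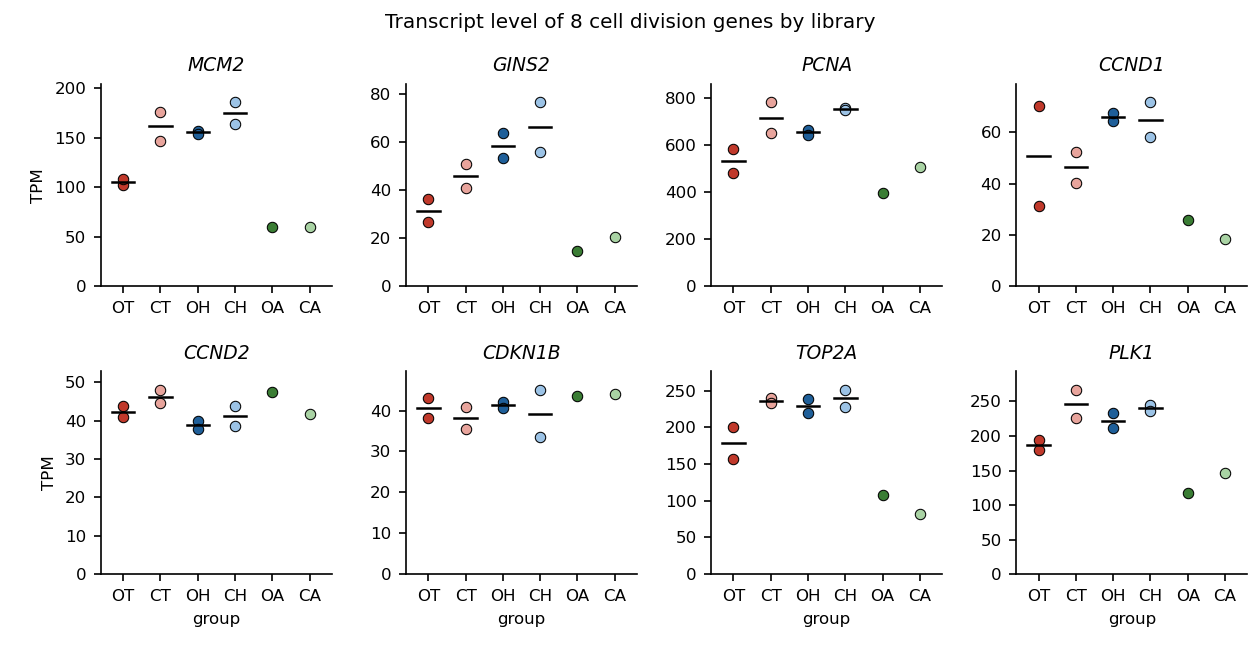
TPM of 8 members by group, from 0 on each vertical axis. Dots are libraries (pools of 4 embryos) and bars are means of duplicates. MCM2, GINS2, CCND1, TOP2A and PLK1 are lowest in OA and CA, CCND2 and CDKN1B are at similar TPM in all groups, and CCND1 differs between OT1, at 31.2 TPM, and OT2, at 70.1 TPM.

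Levels in OA and CA could be compared only as single libraries. OA exceeded CA in 7 of 17 replication and 11 of 18 mitosis genes, with median differences of −0.13 and 0.07 on the log2(TPM + 1) scale, against 0.08 over all genes. The ratio of OA to CA ranged from 0.63 for CENPA to 1.55 for SMC4, and it was 1.01 for MCM2 and 0.71 for GINS2. Sums of blood and yolk sac genes were higher in these libraries than in the embryo, with the trunk libraries above the brain libraries. In the trunk, blood sums ran from 1862 to 15011 TPM and yolk sac endoderm sums from 2520 to 14951 TPM. Against the mean of OT and CT, 3 of 8 blood and 7 of 11 yolk sac endoderm genes were called higher, where 9.83% of all genes were. The blood genes summed to 20223 TPM in OA and 31227 TPM in CA, against between 174 and 958 TPM in the brain libraries, and the yolk sac endoderm genes to 50026 and 37210 TPM, against between 862 and 2275 TPM. Neuroepithelial genes summed to 436 TPM in OA and 277 TPM in CA, against between 1062 and 1375 TPM in the brain libraries. By fold change against the mean of OH and CH, all 10 were negative (median −4.17). Of these, 9 were called lower, where 18.4% of all genes were, FABP7 being the exception. The part of these cell types in the lower levels of replication genes was not tested.

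Further genes of the same pathways were examined in 3 lists. Of 39 other replication genes, 37 were negative in OT compared with CT (median −0.33) and CDC7, a kinase that activates origins, fell, with 40.1 and 46.8 TPM in OT, against 64.0 and 61.7 TPM in CT (−0.50; adjusted p = 0.047 by edgeR). Of 73 other mitosis genes, 62 were negative (median −0.23), compared with 47.3% of all genes tested, and 0 were called by edgeR, where 6.73% of all genes were. There were 14 of these 73 at an unadjusted p under 0.05, all negative. Of all genes, 11.7% were negative at that p, and 26.8% were at that p in either direction. Of 29 genes that control entry into the cycle, 20 were negative and 9 positive (median −0.15), with values from −1.12 to 1.06. Of these 29, 2 were called, both lower, where 6.73% of all genes were called. MYCN, a transcription factor that promotes proliferation, was at 55.1 and 101 TPM in OT, against 197 and 152 TPM in CT (−1.12; adjusted p = 0.0471 by edgeR). CCNE1, the other cyclin E, was at 27.9 and 30.6 TPM in OT, against 50.96 and 42.4 TPM in CT (−0.64; adjusted p = 0.0443 by edgeR). For CDC7, MYCN and CCNE1, both OT libraries lay below both CT libraries. The calls lie close to the threshold, since CDC7 and CCNE1 were called in 0 and MYCN in 1 of 8 fits that each left out 1 library.

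In area opaca compared with midbrain-hindbrain, 21 of 39 other replication genes were called, 20 of them lower, where 39.3% of all genes were called and 18.4% were lower, led by LIG1, the ligase that joins lagging-strand fragments (−1.05), the licensing factor CDT1 (−0.93), MCM10 (−0.91), CLSPN (−0.91) and RPA3, of the single-strand binding protein (−0.89). Of 73 other mitosis genes, 21 were called, a smaller share than that of all genes. Of the 73, 19 were called lower, where 18.4% of all genes were. CCNB3, a cyclin B (−1.11), ESPL1, the protease separase (−1.002), and KIF18B (−0.88) were lowest. Of 30 genes that control entry into the cycle, 8 were called higher and 6 lower, where 20.9% and 18.4% of all genes were. Inhibitors of the cycle were on both sides, with CDKN1C, a kinase inhibitor (−0.88), and RBL1, a retinoblastoma family gene (−0.55), among those lower. MYCN fell to 20.6 TPM in OA and 28.7 TPM in CA, against between 114 and 143 TPM in the brain libraries (−2.05; adjusted p = 0.000914 by edgeR), while the antiproliferative genes TOB1 (1.47) and BTG2 (1.08) and the D-type cyclin CCND3 (1.21) rose, the calls of BTG2 and CCND3 being lost without CA. CDKN1A, a kinase inhibitor, had a value of 1.49 (adjusted p = 0.044 by edgeR), with 6.58 TPM in OA and 20.4 TPM in CA, and was called in 2 of 10 fits that each left out 1 library. In CT compared with CH, MAD1L1, a checkpoint gene, was the only gene of the 3 lists called (0.68; adjusted p = 0.0352 by edgeR), where 7.78% of all genes were. It was called in 2 of 8 fits that each left out 1 library and not with the replicate block.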

How the data were processed

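Poly-A RNA of 10 pools was sequenced in 100-base pairs. Per the study's methods, the authors mapped reads to GRCg7w with NCBI annotation release 106 and assembled transcripts with StringTie. By its name and rows, the deposited table of 25443 genes also covers mouse Otx2 and EGFP. The aligner, tool versions and strand setting are not given in the sources used here, so that overlapping genes cannot be separated. The deposited read counts are raw whole numbers, and the deposited TPM values were scaled by the authors for length and library total. A further 20 deposited FPKM columns were not used.

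Counts were tested with edgeR 4.0.16 in R 4.3.3 (TMM, filterByExpr, quasi-likelihood F-test, 2-sided, threshold 0.05). The 8-library fit had 4 residual degrees of freedom, and the 10-library fit, with OA and CA in 1 coefficient, had 5. Alternatives used DESeq2 1.42.0, limma 3.58.1 on log2(TPM + 1) or log2(TPM + 0.1), RLE factors, no count filter, a replicate block, an additive model, and each library left out in turn. Summaries used Python 3.11.15, pandas 2.3.3 and numpy 2.4.6. The count tests were tested on simulated data, with 200 changed genes, equally many 4-fold and 2-fold, and the same spread for every gene. In the simulated OT and CT libraries, edgeR called 96 of those changed 4-fold and 9 of those changed 2-fold. The numbers were 40 and 2 for the interaction. Every simulated gene had the common spread of all tested genes, not its own. These rates need not hold for the members, whose spread can differ from it. Fold changes of members in OT compared with CT ranged only from −0.62 to 0.39, under 2-fold. A lack of calls does not show that members were unchanged. Levels of all libraries are given for MCM2, PCNA, RRM2, CDK1, CCNA2, CCNE2, CCND1, CCND2, CDKN1B, PLK1, TOP2A, BUB1 and CENPA and for the 2 members per role group with the largest change in OT compared with CT, CT compared with CH, and area opaca compared with midbrain-hindbrain. MCM3, MCM4 and other genes named with partial values were chosen after their values were seen. Members and lists were chosen with earlier results of these data known. Chromosome numbers come from the RefSeq table of GRCg7b, to which 23112 gene identifiers matched, and starts and ends from the deposited table. Promoter and protein sequences were not used here. Among all tested genes, the biological coefficient of variation was 27.9% in the 8-library fit and 30.4% in the 10-library fit.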

Additional observations from a re-analysis of the deposited data

How the results depend on the processing

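In OT compared with CT, the number of members called, 0 by edgeR, was 8 with DESeq2 and 1 with limma at each pseudocount. Of all 16611 genes tested, DESeq2 called 2776, and limma called 926 on log2(TPM + 1) and 1019 on log2(TPM + 0.1). In OT compared with OH, DESeq2 called 3 members and 2462 of all genes, and limma on log2(TPM + 1) called 1 member and 851 of all genes. For area opaca and midbrain-hindbrain, limma on log2(TPM + 1) and log2(TPM + 0.1) called 34 and 33 members, 12 of them mitosis genes in both. Of all 16915 genes tested, 7846 and 7976 were called. On these TPM scales the median of all genes was −0.21 and −0.30, so the members' shift there includes that of all genes. For area opaca and trunk, DESeq2 called 22 members (6 mitosis genes) and 4412 of all 16915 genes. With either pseudocount, limma called 33 members (16 replication and 12 mitosis genes), and 4773 and 4812 of all genes. The medians of all genes with limma were −0.18 and −0.26. With 1 library left out, these numbers lay between 6 and 14 members (6 without OA, 7 without CT1), between 4 and 10 replication genes (4 without OA, 6 without CT1) and between 1 and 6 mitosis genes (1 without CT1).

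Among the members whose levels are given in all libraries, the sign turned for 4 with values near 0. CDK1 in OT compared with CT was 0.14 without OT1 and 0.01 without CT1, and in area opaca compared with midbrain-hindbrain −0.30 with limma at both pseudocounts and −0.11 without CA. CCND1 in OT compared with CT was −0.45 without OT2 and −0.03 without CT2, the lowest of its values with 1 library left out being −0.45 and the highest 0.60. CKS1B in the same comparison was −0.018 with limma at both pseudocounts, −0.01 without OT1 and −0.051 without CT2, with a range of −0.051 to 0.096 over the leave-outs. SMC2 in area opaca compared with midbrain-hindbrain was −0.0057 without the count filter, −0.0070 in the additive model, −0.32 with limma at both pseudocounts, −0.02 without OH1, −0.037 without CH2 and −0.25 without OA, against 0.075 without CH1 and 0.22 without CA. SMC2 is on the Z chromosome, and the 94 W-linked genes summed to 457 TPM in OA and 1907 TPM in CA. The cause of these turns of sign was not tested.

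The differences of role medians were recomputed on log2(CPM + 1) and on log2 CPM with TMM factors, the second chosen after seeing the data. The replication difference between OH and CH was −0.16 and −0.15 on these scales, and between −0.16 and −0.077 with 1 library left out. Between area opaca and midbrain-hindbrain it was −0.95 and −0.76, and between area opaca and trunk −0.56 with TMM factors. The cyclin and kinase difference between OH and CH was −0.15 on both scales and between −0.14 and −0.12 with 1 library left out. It was −0.38 and −0.19 between area opaca and midbrain-hindbrain, and −0.31 and −0.13 between area opaca and trunk. With TMM factors, the cyclin and kinase median of CA (−0.041) lay above that of OT1 (−0.079), so area opaca overlapped the embryonic libraries on that scale. The mitosis difference between OT and CT lay between −0.42 and −0.089 with 1 library left out. It was −0.49 and −0.29 between area opaca and midbrain-hindbrain, and −0.27 with TMM factors between area opaca and trunk.

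Replicate numbers are shared between groups, but no label says that they mark a shared experiment. With the replicate block, 0 members were called in each of the 5 comparisons among embryonic groups. Of all 16611 genes tested, 878 were called in OT compared with CT and 1108 in CT compared with CH. For OT compared with OH, OH compared with CH and the interaction, 74, 4 and 0 were called. Deviations of same-numbered libraries had a correlation over all genes of −0.15 for OT and CT, −0.04 for OH and CH, 0.14 for OT and OH, 0.13 for CT and CH, 0.00 for OT and CH and −0.08 for CT and OH. With only 2 numbers and no label for a shared experiment, the numbers were not taken to pair the samples. Duplicate pools, single area opaca pools of each treatment, the label conflict of CT1 and CT2 and the mixed tissue of the pools limit these comparisons.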

Other observations

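In OH compared with CH, 0 of the other replication, mitosis and cycle entry genes (39, 73 and 29 tested) were called by edgeR and 0 had an unadjusted p under 0.05, where 0.0361% and 2.76% of all genes did. Negative values were found for 32, 61 and 21 of them, with medians of −0.15, −0.15 and −0.06, compared with 48.4% of all genes and a median of 0.01. In area opaca compared with trunk, where 7.96% of all genes were called lower and 9.83% higher, 9 of 39 other replication genes fell, among them LIG1 (−0.91) and CLSPN (−0.73), a checkpoint mediator at replication forks. Of 73 other mitosis genes, 14 fell and 1 rose, and of 30 cycle entry genes MYCN (−1.92), RBL1, a retinoblastoma family gene (−0.58), and TFDP2, a partner of E2F factors (−0.51), fell, while TOB1 (1.42) and CCNG1 (0.43) rose. MYCN and RBL1 were called in each of 10 fits that left out 1 library, TOB1 in 9, CCNG1 in 8 and TFDP2 in 2. The call of TFDP2 was also lost in the additive model, and that of CCNG1 with limma at both pseudocounts.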
